A study of Sus scrofa with 14 samples.

Results

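Gene expression in jejunum segments perfused with yellow onion digest (YOd) was compared with that in segments perfused with the saline digest used as control (Sd). The comparison holds the arrays of pigs 1, 2 and 4, each with 1 Sd and 1 YOd segment, so 6 of the 14 arrays of the series, chosen by their titles. The other 8 arrays are of pigs 5 to 8 and white onion digest (WOd). All pigs were male piglets of 5 weeks and 8.2 kg. In the small intestinal segment perfusion (SISP) technique, neighbouring lengths of gut are fitted with tubes in an anaesthetised animal while blood supply and nerves stay intact. Here the segments lay between 31% and 58% along the small intestine, received 20 ml at the start and were then perfused for 6 h. According to the methods, YOd went in diluted 1:1 in peptone and Sd diluted 1:3 in Saline solution, so the groups differ in the medium and the dilution as well as in the onion, and these cannot be told apart. The material was scraped mucosa, which is mainly epithelium with the immune, vascular and stromal cells beneath it.

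Onions are rich in quercetin glycosides and in sulphur compounds. Electrophiles and quinones formed from such plant compounds can modify the cysteines of Keap1, which otherwise marks the transcription factor Nrf2 for degradation. Nrf2 then accumulates and drives genes for quinone reduction, glutathione synthesis and conjugation. The jejunal mucosa also absorbs fat, sugar, peptides and vitamins, releases hormones from scattered enteroendocrine cells, secretes chloride and bicarbonate, and carries its own innate defence. The genes are described below in these groups.

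On the 6 arrays, between 58.1% and 70.7% of the 43603 probes were well above background and between 664 and 964 probes were saturated. The levels below are log2 signals relative to the 75th percentile of the array, so that 0 is the level of a bright probe, and the lowest level counted was -4.43. Levels of different probes cannot be set against each other. Of the enterocyte markers, 10 could be named and all 10 were well above background on the 6 arrays, with 8 of them (ANPEP, APOA1, APOA4, DPP4, FABP1, FABP2, MTTP and SLC5A1) saturated on all 6. A saturated probe has no ratio of its own. The 568 probes saturated everywhere showed a median log2 ratio of 0.18 in pig 1, 0.12 in pig 2 and 0.63 in pig 4, which are the log2 ratios of the scale factors of their arrays (0.18, 0.12 and 0.62). For that reason the medians of gene lists below leave out members saturated on any of the 6 arrays, among them 34 of the 35 ribosomal protein genes and 12 of the 24 genes of the respiratory chain.

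A probe or gene is called affected when limma's raw p was below 0.05 and the fold change above 1.5, the thresholds of the study, with the pig as a block. By this rule 649 probes were upregulated and 654 downregulated, 4.96% of the 26267 tested. The raw p alone held for 12.1% of the probes. After adjustment over all probes by the method of Benjamini and Hochberg 0 of limma's p-values passed, and the smallest adjusted p was 0.305. Every affected gene named from a RefSeq accession below had an adjusted p of 0.414 from limma unless another is given, so no single gene stands past the correction for the number of probes.

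Among the 2451 tested genes that a RefSeq accession names, 86 were upregulated (3.51%) and 23 downregulated (0.938%), 4.45% in all. Counts of affected list members below are to be read beside these shares. The excess of upregulated genes belongs to the named genes and not to the array as a whole, where both directions had nearly the same number. Over the 2241 named genes without a saturated array the median log2 fold change was 0.12, with 1584 values above 0 and 657 below. Relative to the median of all probes, 417 probes were upregulated and 1040 downregulated, so the balance of directions depends on where the zero is set. Without scaling between arrays the median of all probes moved from 0.07 to -0.23, and the list medians described as above 0 shrank to 0.08 for the Keap1-Nrf2 targets and to 0.01 for the matrix proteases and their inhibitors. In scraped tissue fewer cells of a type and less RNA per cell cannot be told apart.

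The pigs did not contribute equally. Among the 109 affected genes the median absolute log2 ratio reached 1.07 for pig 1 and 0.95 for pig 4 but 0.16 for pig 2. A change over 1.5-fold was seen in 100 of them in pig 1, in 82 in pig 4 and in 19 in pig 2, and in pig 2 the ratio had the opposite sign for 26. Across 22822 probes above background and not saturated, the ratios of pigs 1 and 4 correlated with Pearson's r of 0.471 and Spearman's rho of 0.502. Those of pig 2 correlated with r of 0.103 with pig 1 and 0.0786 with pig 4. These correlations run across probes, which are not independent replicates and share the arrays of a pig, and are given as a description. The Sd and YOd arrays of pig 2 lay on different slides, of which that of the Sd array was scanned in another session, whereas in pigs 1 and 4 both arrays shared a slide. Without pig 2, which is also what a fit with the slide as a block leaves, 1510 probes were upregulated and 1839 downregulated. In all, 3349 of the 26267 probes were affected without pig 2, 1255 without pig 1 and 824 without pig 4. The counts of list members with 1 pig left out, given below, are to be read beside these. Of the 109 genes, 102 were affected in the same direction without pig 2, against 52 without pig 1 and 30 without pig 4. The slide and the animal cannot be told apart for pig 2.

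**Figure D1:**
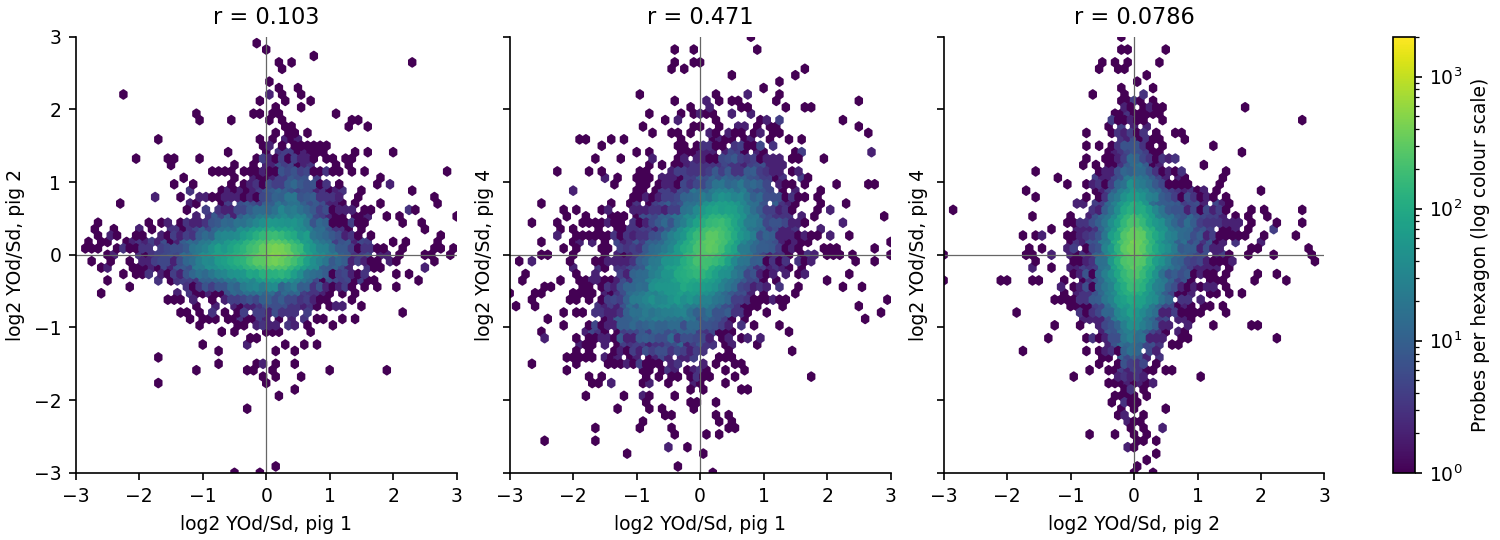
Log2 ratios of YOd over Sd of 22822 probes in pigs 1 and 2 (left), 1 and 4 (middle) and 2 and 4 (right), both axes on the log2 scale and drawn from -3 to 3, with colour for the number of probes per hexagon on a log scale. Pearson's r is 0.471 for pigs 1 and 4 and 0.103 and 0.0786 for the panels with pig 2, where the cloud lies along the axis of the other pig, and 38 probes have a ratio outside the axes.

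Among the 27 genes with the largest changes that kept 1 sign in the 3 pigs and were above background on all 6 arrays, 15 were upregulated and 12 downregulated. Of the 109 affected genes named by a RefSeq accession, 3 were over 1.5-fold in each pig, namely HSD3B1, ADRA2B and ZPBP. HSD3B1, an enzyme of steroid hormone synthesis, had levels of -2.99, -3.66 and -2.56 in the Sd segments of pigs 1, 2 and 4 and of -1.92, -2.75 and -1.77 in their YOd segments. It was higher with YOd in each pig by a similar amount, although the groups overlapped between pigs. The log2 fold change was 0.92 (standard error 0.15, adjusted p = 0.414 by limma). ADRA2B, an alpha-2 adrenergic receptor, and ZPBP, a sperm protein, were dim, with 2 and 1 of their Sd arrays at the lowest level counted, and these values enter their log2 fold changes of 1.36 (standard error 0.30) and 0.73 (standard error 0.15).

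**Figure D2:**
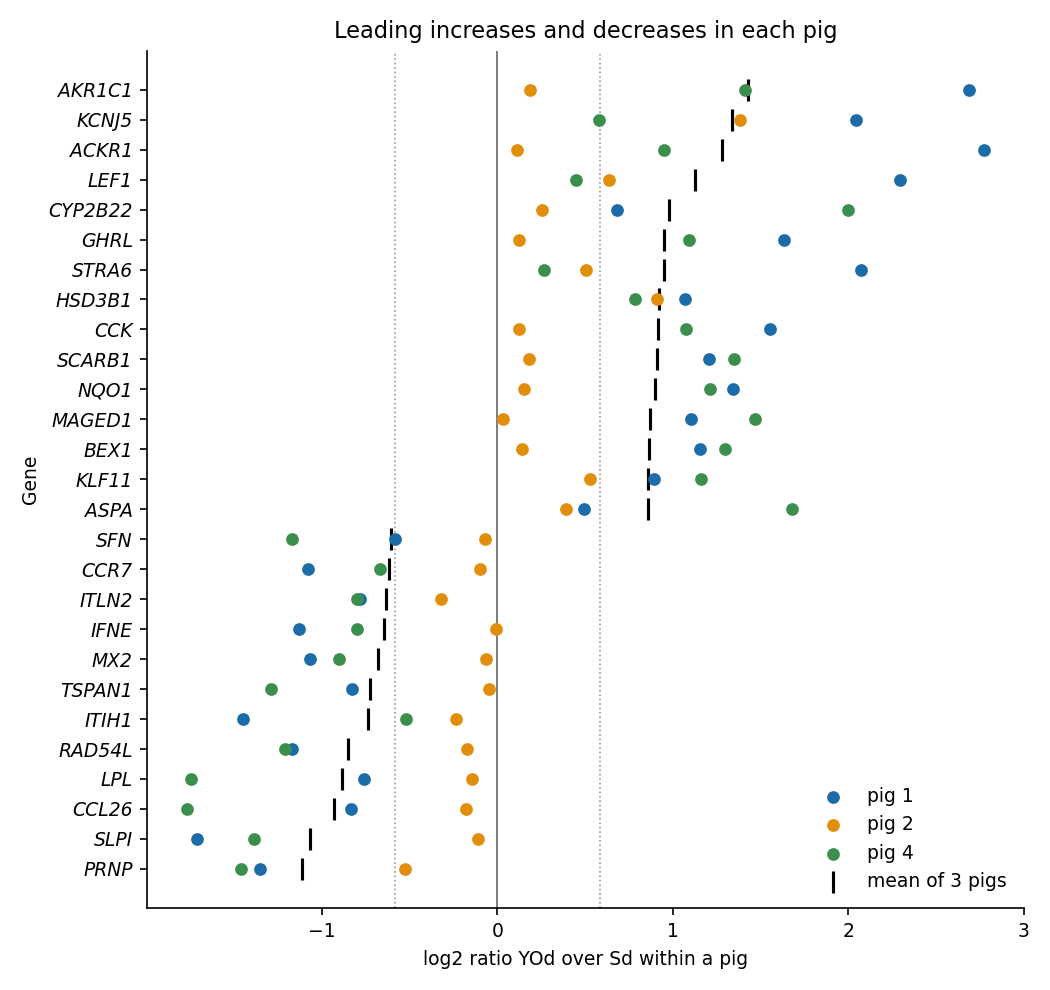
Log2 ratio of YOd over Sd in each pig (coloured points) and the mean of the 3 pigs (black bar) for the 27 leading genes, with dotted lines at 1.5-fold. The points of pig 2 lie near 0 for most genes and within the range of the other pigs for KCNJ5, HSD3B1, LEF1 and STRA6. SCARB1 is drawn from a probe that was saturated on 4 arrays.

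In the Keap1-Nrf2 pathway 4 of the 19 tested members were upregulated and none downregulated, against 3.51% and 0.938% of all named genes. These were the aldo-keto reductases AKR1C1 and LOC733635 (AKR1C2 in the study), which reduce steroids and reactive carbonyls, the quinone reductase NQO1, and HMOX1, which breaks down haem. The 14 members without saturation had a median log2 fold change of 0.39, with 11 above 0. Beside that stands the median of 0.12 over all named genes. The study had already reported AKR1C1 and AKR1C2 from these pigs and placed them in this pathway, and the list was made with that known. Their ratios in pigs 1, 2 and 4 were nearly alike, at 2.69, 0.19 and 1.41 for AKR1C1 and 2.65, -0.10 and 1.43 for LOC733635.

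NQO1 had levels of 1.61, 0.27 and 1.95 with Sd and 2.95, 0.42 and 3.16 with YOd in pigs 1, 2 and 4. The YOd segments of pigs 1 and 4 lay above every Sd segment, whereas that of pig 2 lay below the Sd segments of the other pigs. Its log2 fold change was 0.90 (standard error 0.25, adjusted p = 0.414 by limma), and the other 2 tested NQO1 probes were also upregulated, by 0.99 and 0.75. AKR1C1 showed the same order of pigs, with Sd levels of 0.30, -1.85 and 0.25 and YOd levels of 2.98, -1.67 and 1.67, and all 3 of its tested probes were upregulated (1.43, 1.48 and 1.36). HMOX1 differed from these, since its levels were 3.94, 4.09 and 3.70 with Sd and 4.30, 4.43 and 5.07 with YOd, so that the groups did not overlap and the largest ratio was that of pig 4. The fold change was 0.69 on the log2 scale (standard error 0.24), and the other 2 HMOX1 probes, at 0.42 and 0.51, were not affected.

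Members short of 1.5-fold included GCLM, the modifier subunit of the enzyme that starts glutathione synthesis, at 0.42 with ratios of 0.35, 0.52 and 0.40 in the 3 pigs, a gene where pig 2 was not the lowest. CBR1 and PTGR1, which reduce carbonyls and prostaglandins, were at 0.43 and 0.41, while TXNRD1 (0.04), TKT (0.08) and AKR1B1 (-0.06) lay near 0. Without pig 4, 0 members of the list were affected, against 3 without pig 1 and 7 without pig 2. Of all 26267 probes, 824, 1255 and 3349 were affected in these fits. With quantile normalization 2 members of the list were affected. Of 17 tested antioxidant enzymes 0 were affected at both thresholds and 1 had a raw p below 0.05 by limma. Among 30 genes of drug metabolism the cytochrome CYP2B22 alone was affected. Saturation on at least 1 array, which hides a change, held for 7 of the antioxidant enzymes and 10 of the drug metabolism genes. CYP2B22 had levels of 4.22, 1.05 and 1.95 with Sd and 4.90, 1.30 and 3.95 with YOd, and its log2 fold change of 0.98 (standard error 0.33) was mostly that of pig 4. CYP1A1, which oxidises aromatic compounds, was not affected and had log2 ratios of opposite sign, -1.44 in pig 1 and 1.58 in pig 4.

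**Figure D3:**
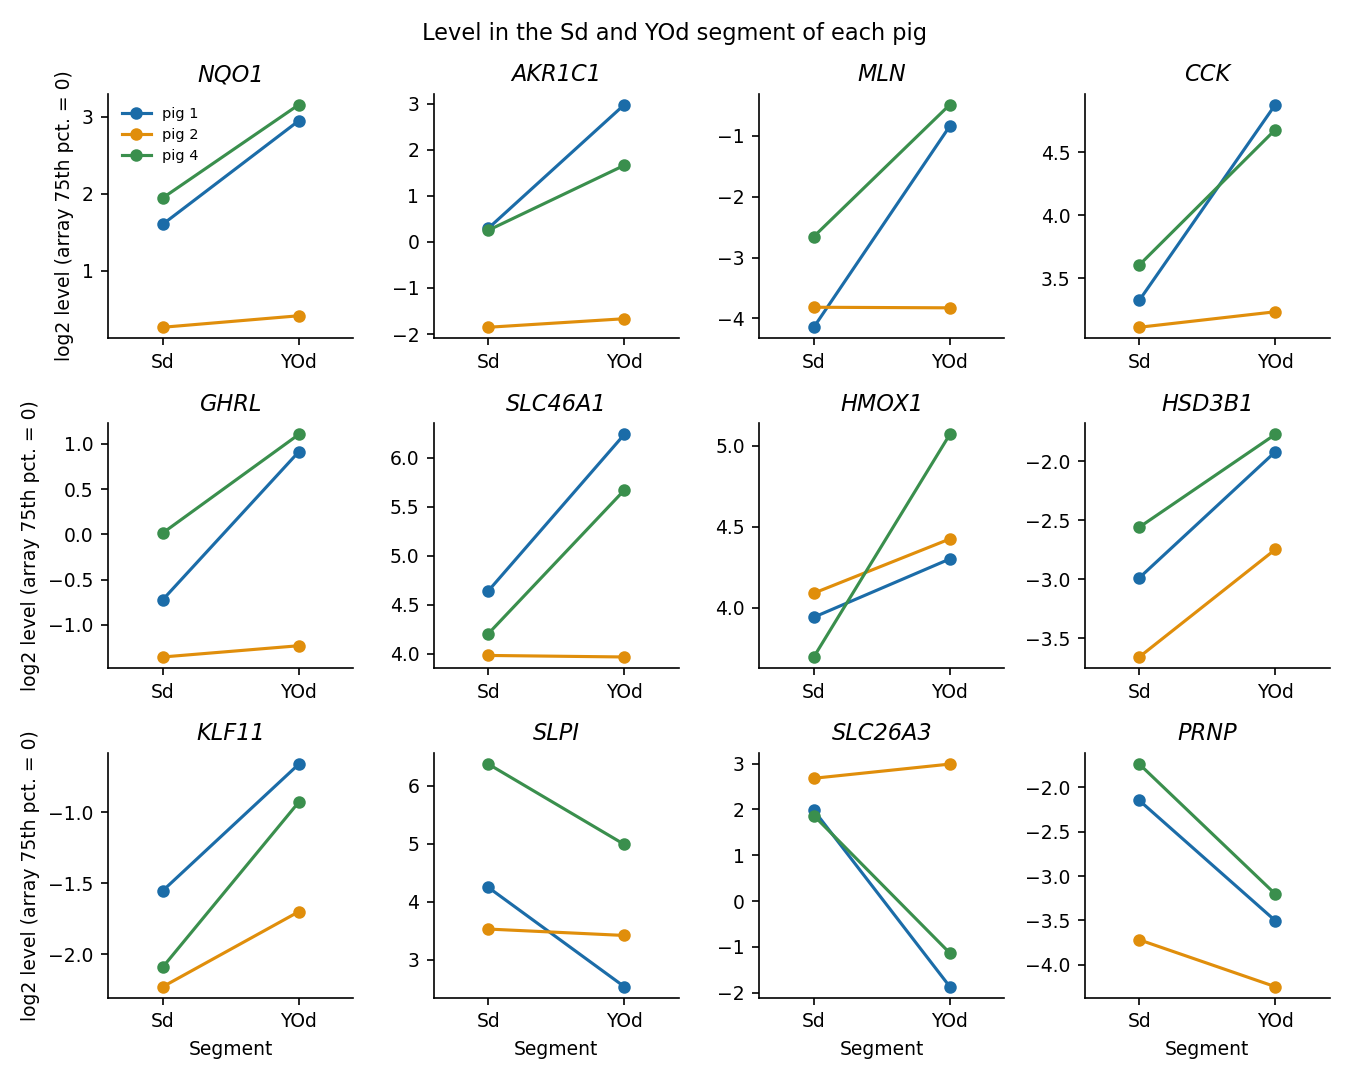
Level of 12 genes in the Sd and YOd segment of pigs 1, 2 and 4, as log2 signal relative to the 75th percentile of the array, 1 line per pig. HSD3B1, KLF11 and PRNP move in 1 direction in the 3 pigs, whereas the lines of pig 2 are nearly flat for MLN, CCK, GHRL, SLC46A1 and AKR1C1.

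Motilin, cholecystokinin and ghrelin were the affected gut hormones named by a RefSeq accession, and secretin was affected by its name in the study's table. All had higher expression in YOd. Of the 15 tested members of the list of gut hormones and their factors with a RefSeq name, 4 were upregulated (MLN, CCK, GHRL and PDX1) and 0 downregulated. The shares over all named genes were 3.51% and 0.938%. Among 14 members without saturation 12 were above 0. Their median of 0.28 became -0.03 without scaling between arrays, where the median of all probes was -0.23. MLN encodes motilin, which drives the migrating contractions of the fasted gut, and had Sd levels of -4.14, -3.82 and -2.66 and YOd levels of -0.84, -3.83 and -0.49. Both YOd segments of pigs 1 and 4 lay above all Sd segments, and pig 2 did not move. The log2 fold change was 1.82 (standard error 0.56, adjusted p = 0.414 by limma), and a second MLN probe gave 1.03.

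CCK, the hormone that empties the gall bladder after a fatty meal, was at 3.33, 3.11 and 3.61 with Sd and at 4.88, 3.23 and 4.68 with YOd. The gene rose by 0.92 (standard error 0.27), and the other probe gave 0.83. GHRL, which encodes the appetite hormone ghrelin, went from -0.72, -1.35 and 0.02 to 0.91, -1.23 and 1.11 (log2 fold change 0.95, standard error 0.28). The same pattern held for PDX1, a homeobox factor of the pancreas and the upper gut that is needed for some endocrine cells, with Sd levels of 0.48, -0.68 and 1.16 and YOd levels of 2.26, -0.70 and 3.16. For SCT, the secretin gene named through the study's table, they were 1.53, 0.24 and 1.82 with Sd and 3.46, 0.23 and 3.13 with YOd. SCT rose by 1.08 on the log2 scale (standard error 0.35, adjusted p = 0.414 by limma), given as a description since that table was selected on these samples. In all 5 genes the segments of pig 2 were nearly alike, with log2 ratios from -0.02 for PDX1 to 0.12 for CCK and GHRL.

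All 5 tested markers of endocrine cells lay above 0, as did 1584 of the 2241 named genes without a saturated array. Raw p was below 0.05 by limma for 2 of the 5, and CCK alone was affected. CHGA and CHGB, the chromogranins of the secretory granules, stood at 0.13 and 0.22, SST (somatostatin) at 0.33 and SCG5 at 0.56. GCG, which encodes the glucagon-like peptides of the lower gut, was at -0.29, and GUCA2B (uroguanylin) at -0.16. Without pig 4, 0 members of the hormone list were affected, against 2 without pig 1 and 6 without pig 2. Of all 26267 probes, 824, 1255 and 3349 were affected in these fits. The summed level of the 5 endocrine markers tested, with CCK among them, rose from 5.10 to 6.04 in pig 1. It rose from 5.27 to 5.95 in pig 4 and was 4.77 in both segments of pig 2. The ranges were 4.77 to 5.27 with Sd and 4.77 to 6.04 with YOd. PAX6 was at the lowest level on all 6 arrays. The part of endocrine cell number in the hormone genes was not tested.

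FOLH1B (FOLH1 in the study), PDX1 and SLC10A2 are also markers of position along the gut, where the first 2 mark the proximal and the last the distal small intestine. FOLH1B cleaves glutamates from dietary folate, and SLC46A1 is the proton-coupled transporter that then takes folate up. FOLH1B had levels of 2.69, 1.59 and 3.26 with Sd and of 5.22, 1.56 and 5.39 with YOd, and those of SLC46A1 were 4.64, 3.98 and 4.20 with Sd and 6.24, 3.97 and 5.67 with YOd. Both were higher in the YOd segments of pigs 1 and 4 than in any Sd segment, and unmoved in pig 2. The log2 fold changes were 1.54 (standard error 0.47) and 1.02 (standard error 0.32).

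Of 23 tested genes of vitamin and mineral uptake 3 were upregulated, against 3.51% of all named genes. They were FOLH1B, SLC46A1 and STRA6, the receptor for retinol-binding protein, the last with 0.95 (standard error 0.35). Most of its rise lay in pig 1, from -2.50 to -0.43. SLC10A2, the bile acid transporter of the lower gut, was at -2.62, -1.21 and -1.86 with Sd and at -3.63, -1.21 and the lowest level counted with YOd. Its log2 fold change was -1.19 (standard error 0.44) and pig 2 did not move, and the other distal markers FABP6 and GCG were not affected, at -0.08 and -0.29. The other proximal markers CYBRD1 and SLC11A2, both of iron uptake, were at -0.02 and 0.00. The summed level of the 4 proximal markers without saturation ranged from 3.74 to 4.63 with Sd and from 3.58 to 5.95 with YOd. For the 3 distal markers it was 1.26 to 4.30 and 1.20 to 4.28. Within pigs 1, 2 and 4 the proximal sum went from 4.11 to 5.77, 3.74 to 3.58 and 4.63 to 5.95. The distal sum went from 1.26 to 1.20, 4.30 to 4.28 and 2.33 to 1.75. By the design, the YOd and Sd segments of a pig formed a neighbouring pair, and the part of their position along the gut in these values was not tested.

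Genes of dietary fat uptake showed 4 upregulated and 1 downregulated of 29 tested, against 3.51% and 0.938% of all named genes. SCARB1, the scavenger receptor that takes up cholesterol and carotenoids, was saturated on all YOd arrays and on the Sd array of pig 2 by its brightest probe, and is therefore read from its next probe, at 0.97 (standard error 0.32) with ratios of 1.28, -0.01 and 1.65. Another probe gave 1.01. DGAT2, which closes triglyceride synthesis, had Sd levels of 2.10, 0.95 and 0.97 and YOd levels of 3.0, 0.79 and 2.63, for a log2 fold change of 0.80 (standard error 0.33).

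ABHD5, the co-activator of triglyceride lipase, rose in all 3 pigs from 3.43, 2.65 and 2.73 to 4.41, 2.91 and 3.78. ABHD5 changed by 0.76 (standard error 0.20, adjusted p = 0.414 by limma). APOA2, an apolipoprotein of high-density lipoprotein, rose by 0.70 (standard error 0.21) with ratios of 1.19, 0.22 and 0.70. CD36, which binds long-chain fatty acids, was at 0.59 with 1.33 in pig 4 and was not affected. The uptake genes APOA1, APOA4, APOC3, FABP1, FABP2 and MTTP were saturated on all 6 arrays and give no ratio.

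LPL, the lipase that frees fatty acids from lipoproteins in capillaries, went the other way, from -0.92, -0.39 and 0.40 with Sd to -1.69, -0.54 and -1.35 with YOd. All 3 pigs were lower, the log2 fold change was -0.88 (standard error 0.30), and 2 of its other 4 probes were downregulated, at -1.0 and -0.91, while 1 stood at 0.21. In fatty acid oxidation, UCP3 and PDK4 were upregulated of 24 tested, against 3.51% of all named genes. UCP3, a mitochondrial carrier, was at 1.06 (standard error 0.40), with ratios of 1.17, -0.15 and 2.15. PDK4, the kinase that closes the entry of pyruvate into the citric acid cycle, was at 0.59 (standard error 0.22), with 1 YOd array saturated, and its other 8 probes were not affected.

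Synthesis of sterols and fatty acids lay on the lower side. Of 20 tested genes 14 were below 0, with a median of -0.16, whereas most named genes were above 0, and 1 gene was affected. This was ACACA, acetyl-CoA carboxylase, with levels of -2.54, -2.56 and -2.71 with Sd and of -3.58, -2.53 and -3.55 with YOd. It fell by 0.62 on the log2 scale (standard error 0.23), but its other probe stood at -0.05. FASN, fatty acid synthase, was at -0.47, INSIG1 at -0.41, SQLE at -0.39 and SCD at -0.36, and none of these was affected. Without pig 1, 0 members were affected, against 3 without pig 2 and 1 without pig 4. In these fits 1255, 3349 and 824 of all 26267 probes were affected.

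**Figure D4:**
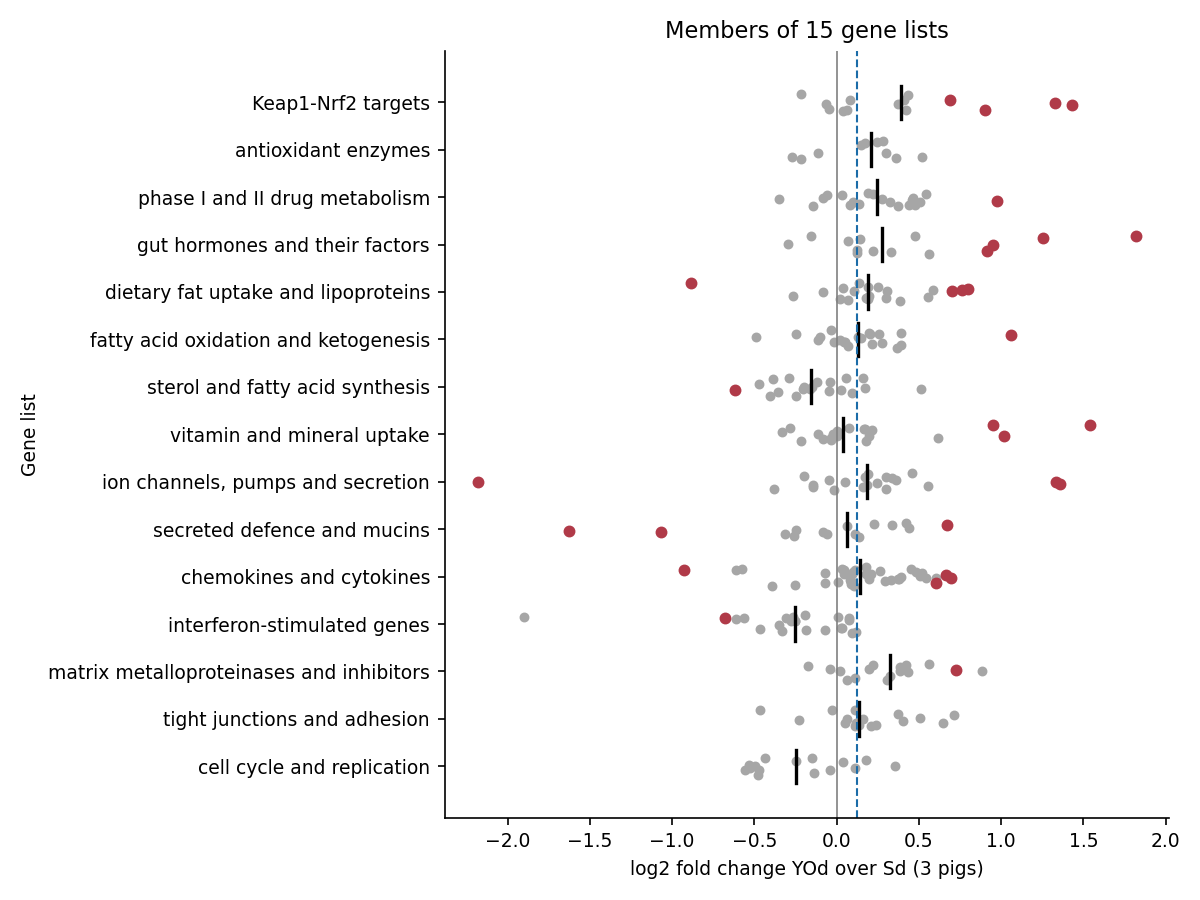
Log2 fold change of YOd over Sd for the members of 15 gene lists that were not saturated on any array, with affected genes in red, other members in grey, the list's median as a black bar and the median of all named genes as a dashed line. The medians of the Keap1-Nrf2 targets (0.39), matrix proteases and their inhibitors (0.32) and gut hormones (0.28) lie above the dashed line at 0.12. Those of the interferon-stimulated genes (-0.25), the cell cycle genes (-0.25) and sterol synthesis (-0.16) lie below 0. Without scaling, which is not drawn, the median was -0.03 for the gut hormones and -0.23 for all probes.

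The largest decrease of an affected named gene was that of SLC26A3, the apical exchanger that takes up chloride for bicarbonate. It had levels of 1.98, 2.68 and 1.87 with Sd and of -1.87, 2.99 and -1.14 with YOd. The YOd segments of pigs 1 and 4 lay well below all Sd segments, and that of pig 2 above them. The log2 fold change was -2.18 (standard error 0.72, adjusted p = 0.414 by limma) and the other probe gave -2.09, so that both probes showed the same in pigs 1 and 4. It was -1.35 without pig 1, -3.43 without pig 2 and -1.77 without pig 4, where the thresholds were no longer met.

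Among the 22 tested genes of ion transport and secretion, KCNJ5 and ADRA2B were upregulated. KCNJ5, a potassium channel of the inward rectifier family, had dim Sd levels of -4.15, -4.36 and -2.76 and YOd levels of -2.10, -2.98 and -2.18. It was higher with YOd in each pig, by 2.05, 1.38 and 0.58. CFTR, the chloride channel of secretion, was at 0.30 and GUCY2C, the receptor of guanylin, at 0.19, and neither was affected. The water channel AQP10 was at 0.56 with 1.14 in pig 4.

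Innate defence genes moved in both directions. Of 19 tested, S100A9 was upregulated and SLPI and PI3 were downregulated, against 3.51% and 0.938% of all named genes. SLPI, the secretory leukocyte protease inhibitor, was at 4.24, 3.53 and 6.37 with Sd and at 2.53, 3.42 and 4.99 with YOd. Its log2 fold change was -1.07 (standard error 0.31), with -1.71 and -1.39 in pigs 1 and 4 and -0.11 in pig 2, and all 7 of its probes were downregulated, from -0.93 to -1.23.

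PI3 (elafin), a related inhibitor of neutrophil elastase, was at -1.58, 2.42 and 1.74 with Sd and at -4.22, 2.75 and -0.84 with YOd. On average the log2 ratio was -1.63 (standard error 0.57), on 5 of 6 arrays above background. The calprotectin subunit S100A9, abundant in neutrophils, was at -1.24, -0.31 and -1.07 with Sd and at 0.27, -0.21 and -0.66 with YOd (log2 fold change 0.67, standard error 0.28). Its partner S100A8 was at 0.42 and was not affected. ITLN2, an intelectin that binds microbial sugars, was lower in all 3 pigs, with log2 ratios of -0.78, -0.32 and -0.80, and its 4 probes were all downregulated.

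Of 40 tested chemokines and cytokines, 3 were upregulated and 1 downregulated, against 3.51% and 0.938% of all named genes. Above 0 lay 31 of 38 members without saturation, as did 1584 of the 2241 named genes. The list's median of 0.14 was near the 0.12 of all named genes. It became -0.13 without scaling between arrays, where the median of all probes was -0.23. CCL2 attracts monocytes, CCL19 attracts T cells and dendritic cells, and CXCL12 holds leukocytes in tissue. CCL19 was at -0.45, 2.69 and 0.11 with Sd and at 1.03, 2.63 and 0.78 with YOd (log2 fold change 0.70, standard error 0.29). CCL2 changed by 0.66 (standard error 0.22) and CXCL12 by 0.60 (standard error 0.25).

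CCL26, an eotaxin that attracts eosinophils, fell from 0.81, 1.57 and -0.46 to -0.03, 1.39 and -2.23, lower in each pig. TNF, the tumour necrosis factor, had an even ratio of 0.46, 0.46 and 0.60 in the 3 pigs (log2 fold change 0.51, standard error 0.14), below 1.5-fold. IL6 was at 0.60 with 1.48 in pig 1 and 0.00 in pig 4. CXCL8, the main neutrophil chemokine, was at -0.07. Without pig 4, 1 member was affected, against 2 without pig 1 and 11 without pig 2. Of all 26267 probes, 824, 1255 and 3349 were affected in these fits.

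ACKR1, the scavenging chemokine receptor of venules and red cells (DARC in the study), had levels of -4.12, -0.81 and -2.66 with Sd and of -1.35, -0.70 and -1.71 with YOd. The rise of 1.28 (standard error 0.46) was mostly that of pig 1, where the ratio was 2.77. CCR7, the receptor of CCL19 on lymphocytes and dendritic cells, was at -1.71, -1.64 and -1.97 with Sd and at -2.79, -1.74 and -2.64 with YOd, and fell by 0.62 on the log2 scale (standard error 0.21).

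Markers of other cells of the mucosa lay mostly above 0 alongside these genes, as did 1584 of the 2241 named genes. For T and NK cells 10 of 11 markers did, with a median of 0.35 and CD3D at 0.50, and the summed level ranged from 6.08 to 7.04 with Sd and from 6.74 to 7.03 with YOd. Macrophage and granulocyte markers were above 0 for 6 of 6, with summed levels of 4.34 to 5.28 and 4.79 to 5.22, and endothelial markers for 5 of 5, with 2.45 to 3.16 and 2.76 to 3.18. The ranges of the groups overlapped in each list, and S100A9 alone was affected. Within pig 1 the summed levels of these lists, in that order, rose from 6.08 to 6.74, 4.34 to 4.87 and 2.45 to 3.06. In pig 4 they rose from 6.46 to 7.00, 4.42 to 4.79 and 2.50 to 2.76. In pig 2 they went from 7.04 to 7.03, 5.28 to 5.22 and 3.16 to 3.18. Without scaling between arrays 9 of 11, 3 of 6 and 3 of 5 of these markers lay above 0. Their medians were then 0.04 for T and NK cells, 0.04 for macrophages and granulocytes and 0.01 for endothelium, and that of all probes was -0.23. Smooth muscle markers had a median of -0.03 and a summed level of 4.84 to 5.51 with Sd and 4.60 to 5.67 with YOd. Within pigs 1, 2 and 4 that level went from 5.42 to 5.67, 5.51 to 5.51 and 4.84 to 4.60. Of the 11 T and NK markers 5 were affected without pig 2, and 0 without pig 1 or pig 4. Of all 26267 probes, 3349 were affected without pig 2, 1255 without pig 1 and 824 without pig 4. The part of these cells in the chemokine and defence genes was not tested.

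Interferon-stimulated genes leaned to lower values with YOd. Of the 22 members without saturation 15 were below 0, with a median of -0.25, and 9 were below 0 in all 3 pigs, against 172 of 2241 among all named genes. The affected member was MX2, an antiviral GTPase, with levels of 3.52, 3.42 and 4.35 with Sd and of 2.45, 3.35 and 3.44 with YOd. On average the log2 ratio of MX2 was -0.68 (standard error 0.22), with -1.07 in pig 1, -0.90 in pig 4 and -0.07 in pig 2.

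RSAD2 (viperin) was at -0.47 with -0.84, 0.19 and -0.75, BST2 (tetherin) at -0.56 with -1.34 in pig 4, and neither was affected. IFI44 was at -1.90 (standard error 0.80, adjusted p = 0.414 by limma). The YOd array of pig 2 stood at the lowest level counted, with a ratio of -4.72, whereas pigs 1 and 4 gave -0.47 and -0.50. IFNE, the interferon made by epithelia, was at -0.20, -0.51 and -0.18 with Sd and at -1.33, -0.52 and -0.98 with YOd. The groups did not overlap, though pig 2 did not move, and the log2 fold change was -0.65 (standard error 0.23). The bright members ISG15, MX1 and OAS2 were saturated on 4 to 6 arrays and give no ratio. The genes of MHC class I and II and of Toll-like receptors had 0 affected members of 13, 9 and 22 tested, with raw p below 0.05 by limma for 0, 1 and 1. In the class I list 4 of the 13 were saturated on all 6 arrays and give no ratio.

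Among immediate early factors, KLF10 and KLF11, which respond to transforming growth factor beta, were upregulated of 21 tested. KLF11 was at -1.55, -2.23 and -2.09 with Sd and at -0.66, -1.70 and -0.93 with YOd. It rose in each pig (0.89, 0.53 and 1.16), on average by 0.86 (standard error 0.17, adjusted p = 0.414 by limma), and its other probe gave 0.68. KLF10 was at 0.60 (standard error 0.23), with -0.06 in pig 2, and none of its other 3 probes was affected. FOS was at -1.05 with -2.75 in pig 1, and was not affected.

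In a list of metalloproteinases, plasminogen activators and their inhibitors 15 of 17 genes lay above 0, with a median of 0.32. Among all named genes 1584 of 2241 did, with a median of 0.12. MMP9, the gelatinase of neutrophils and macrophages, was the affected one, with levels of 1.31, 2.64 and 2.52 with Sd and of 2.11, 2.68 and 3.86 with YOd. Its log2 fold change was 0.73 (standard error 0.25) and that of its other probe 0.82. MMP12, the macrophage elastase, was at 0.89 with 2.04 in pig 4, and was not affected. Tight junction genes had 0 affected of 20 tested and 4 with a raw p below 0.05 by limma, and OCLN (occludin) stood at 0.21. Saturation on at least 1 array held for 3 of the 20.

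Of 58 listed genes of cell division, 15 were named by a RefSeq accession and tested. Of these 11 lay below 0, with a median of -0.25, and 0 were affected, with 1 raw p below 0.05 by limma. The lowest ratios were those of pig 4, in which TOP2A, the topoisomerase of dividing cells, was at -1.23 and CDK1 at -1.05, against -0.37 and -0.26 in pig 1 and -0.07 and -0.12 in pig 2. RAD54L, which serves recombination repair in dividing cells, was affected outside the list, from -2.55, -2.29 and -2.72 to -3.73, -2.46 and -3.93 (log2 fold change -0.85, standard error 0.24, adjusted p = 0.414 by limma). PLK1, a listed gene that the study's table alone names, is not among the 15 and was downregulated, at -0.85 (standard error 0.27). Without pig 1, 3 of the 15 genes were affected, and 4 without pig 2. Without pig 4 it was 0 and the median was 0.01. In the fits without pig 1, 2 and 4, 1255, 3349 and 824 of all 26267 probes were affected. Markers of crypt and cycling cells had summed levels of 3.57 to 4.59 with Sd and of 3.45 to 4.50 with YOd. Within pigs 1, 2 and 4 the level went from 3.57 to 3.45, 4.56 to 4.50 and 4.59 to 3.81.

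In the remaining lists few genes were affected. In sugar digestion and glycolysis UGP2, which makes the UDP-glucose for glycogen and glucuronides, was at 0.72 (standard error 0.23), with ratios of 0.79, 0.13 and 1.24, and was the affected one of 22. In the heat shock and endoplasmic reticulum stress list HSPA1L was, at 0.70 (standard error 0.23), of 22. CYP27A1, a sterol hydroxylase of bile acid synthesis, rose by 1.02 (standard error 0.42) on pigs 1 and 4, and its other probe missed the thresholds. The lists of hypoxia, peptide uptake, proteasome, respiratory chain and ribosomal proteins held 0 affected genes. Raw p was below 0.05 by limma for 1 gene of peptide uptake and 0 of the others. These counts include saturated members, which have no ratio of their own. Such members were 34 of 35 ribosomal protein genes, 12 of 24 of the respiratory chain, 5 of 17 of the proteasome and 4 of 16 of peptide uptake. For them the 0 does not show that expression was unchanged.

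Of the RefSeq-named genes with 1 sign in the 3 pigs and all arrays above background, the largest decrease was that of PRNP, the cellular prion protein, with levels of -2.15, -3.72 and -1.74 with Sd and of -3.50, -4.25 and -3.20 with YOd. It was lower in each pig, with log2 ratios of -1.35, -0.53 and -1.46, and the log2 fold change was -1.11 (standard error 0.22, adjusted p = 0.414 by limma). SFN, the 14-3-3 sigma of epithelia, fell by 0.61 (standard error 0.23), TSPAN1, a tetraspanin, by 0.72 (standard error 0.25), and ITIH1, a heavy chain that binds hyaluronan, by 0.74 (standard error 0.25). LEF1, a transcription factor of the Wnt pathway, rose by 1.13 (standard error 0.36), mainly in pig 1 (2.29), but its other probes gave 0.49 and -0.04. MAGED1 rose by 0.87, BEX1 by 0.86 and ASPA, which cleaves N-acetylaspartate, by 0.86.

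The study's own table names further probes, and since it was selected on these samples its members are given as a description. Of 516 such probes tested, 80 were upregulated and 47 downregulated, beside 4.96% of all probes tested in either direction. The most even were LOC100627925, at -4.31, -3.54 and -2.30 with Sd and at -2.04, -0.91 and -0.42 with YOd, and VTCN1, a ligand that restrains T cells, at -3.53, -3.03 and -2.49 with Sd and at -2.19, -1.29 and -0.51 with YOd. In both the YOd segments lay above all Sd segments and pig 2 moved as much as the others, by 2.63 and 1.74. HOMER2, a scaffold protein of calcium signalling, changed by 1.4 and the secreted phospholipase PLA2G3 by 1.32.

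Downregulated among them were ARL14, a small GTPase, by 1.45 on the log2 scale, choline kinase CHKA by 1.08, the carbonic anhydrase CA13 by 1.03 and the mitotic kinase PLK1 by 0.85. CA13 was at 2.48, 3.03 and 2.33 with Sd and at 0.70, 2.82 and 1.24 with YOd, once more with little change in pig 2. LOC102161154, also named by that table, went from -0.90, 1.13 and -0.83 to -1.82, 1.01 and -1.91, lower in each pig.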

How the data were processed

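For each segment the authors deposited a 1-colour array file of Feature Extraction, with the processed signal as an intensity after background subtraction and detrending, the median intensities of spot and background, and flags. They also deposited log2 values centred per probe, whose scaling between arrays is not stated, which served here as an alternative. The members and gene lists were chosen with earlier results of these data known.

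Outlier spots were left out, spots of a probe were averaged, and each signal was taken relative to the array's 75th percentile, raised to the pooled 40th percentile of all 14 arrays and log2 transformed. Probes above this floor on at least 3 of the 6 arrays entered a paired limma fit (limma 3.58.1 under R 4.3.3) that blocked on the pig, as in the methods, and p-values were adjusted over all probes. The arrays of a pig deviated together from the group means (r of 0.759, 0.701 and 0.604 in pigs 1, 2 and 4). With 3 pigs, the number of arrays limits the precision. The fit was tested on simulated data.

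Names came from the RefSeq accession in the files matched to the Sscrofa11.1 reference (6686 of 43603 probes, 3020 genes) or from the study's table (531 further probes). The other probes, 955 of them affected, were not named. Each gene was read from its brightest probe over the 6 arrays. Named are the 15 largest increases and decreases with 1 sign in the 3 pigs and all 6 arrays above background (12 decreases qualified), affected list members and members a list is known for, genes picked from the study's text and table, and the largest changes of its table. ZPBP and the other probes of a gene were chosen after their values were seen. Normexp background correction was run on the median intensities, since the mean was not among the columns used here. Alternatives further covered quantile normalization, no scaling, another scale, the floor, the filter, the block, the slide, all 14 arrays and each pig left out. Other steps ran in Python 3.11.15. Pig 3 was not analysed here, and coordinates and sequences were not used here.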

Additional observations from a re-analysis of the deposited data

Results flagged for a closer look

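The effect of YOd was set against that of WOd, which was measured in other pigs (5 to 8), in a limma fit over all 14 arrays. At a raw p below 0.05, 1822 of 25464 probes differed between the digests, and 0 after adjustment. Those among them that were chosen for naming are given here with the difference of YOd minus WOd on the log2 scale, and had adjusted p-values of 0.680 to 0.698 by limma. These genes were named for their change between YOd and Sd, and the same arrays enter the difference. A difference in the direction of the YOd change was therefore favoured in advance, and the values are a description. The digests were not given to the same pigs, so the digest cannot be told apart from the set of pigs.

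Among the chemokine genes, the difference was 1.59 for CCL19 (standard error 0.58), 1.13 for CCL2 (standard error 0.34) and 1.55 for CXCL12 (standard error 0.60), with WOd log2 fold changes of -0.89, -0.47 and -0.95. These genes were upregulated with YOd, and their WOd values lay below 0. ACKR1, which binds chemokines, differed by 1.6 (standard error 0.57), and its WOd value was -0.33. LEF1, the Wnt factor, differed by 1.90 (standard error 0.54), against -0.78 with WOd, and ASPA by 1.19 (standard error 0.36), against -0.33.

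The prion protein gene PRNP differed by -1.46 (standard error 0.34), with 0.34 with WOd, LPL by -1.06 (standard error 0.41) with 0.18, and ACACA by -0.84 (standard error 0.33) with 0.22. For IFNE the difference was -0.74 (standard error 0.32), with 0.09 with WOd. KLF11 and BEX1 differed by 0.76 (standard error 0.29) and 0.84 (standard error 0.31), with WOd values of 0.10 and 0.02.

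Of the genes over 1.5-fold in each pig, LOC100627925 differed by 2.0 (standard error 0.50), VTCN1 by 1.65 (standard error 0.43) and ZPBP by 0.91 (standard error 0.29), with WOd values of 0.25, 0.04 and -0.18. Of the other genes named by the study's table, SH3BGRL2 differed by 0.92 (standard error 0.38), CHKA by -1.15 (standard error 0.42), LOC100513899 by -1.38 (standard error 0.49) and LOC102166312 by -1.20 (standard error 0.36). The table was selected on these samples, so these differences are a description.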

How the results depend on the processing

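Values rest on 3 pigs with 1 array per segment, and on which pigs are included. The count of 1303 affected probes was 1255 without pig 1, 824 without pig 4 and 3349 without pig 2, a range of 824 to 3349. A fit with the pig and the slide, which amounts to leaving out pig 2, gave 3349 as well. It was 1083 with quantile normalization (462 up and 621 down), 3039 without scaling (78 up and 2961 down), 439 with normexp background, 284 without the filter on dim probes (205 up and 79 down), 74 from the deposited log2 values and 327 without the pig as a block. Relative to the median of all probes it was 1457, by RefSeq name 109 genes, and at an adjusted p below 0.05 it was 0. Upregulated probes made up 49.8% of the 1303, against 42.7% with quantile normalization, 2.57% without scaling, 72.2% without the filter, 28.6% relative to the median, 59.8% without pig 1 and 73.3% without pig 4. The cause of these shifts was not tested.

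At a raw p below 0.05 by limma and 1.5-fold together, 1636 probes differed between YOd and WOd. The count was 2905 in a fit meant to hold the slide constant, which left out pigs 2 and 7, whose arrays lay on different slides. With 1 pig left out it was 768 to 2415, the lowest without pig 1 (768) and pig 4 (862). Of the 54 affected named genes, 54 were affected without pig 2, 28 without pig 1 and 7 without pig 4, and 0 changed direction. Of the 109 genes, 78 were affected with quantile normalization, 56 with normexp, 17 without the filter, 7 from the deposited log2 values and 19 without the block of pigs. HSD3B1 was affected under all 14 alternatives, KLF11 under 13 and KCNJ5 under 12. The fit with the slide and the fit without pig 2 count separately among the 14, though they amount to the same. Of the 54 affected named genes, 23 had other tested probes, 51 in all. Of these probes 49 had the same sign as the gene, but 26 were affected in the same direction. The 2 probes of opposite sign were at -0.039 for LEF1 and 0.21 for LPL.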

Other observations

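SPAI-2, which encodes a sodium-potassium ATPase inhibitor with the same inhibitor fold as elafin, was outside the lists and chosen after its values were seen. It was at 6.06, 6.59 and 6.19 with Sd and at 2.50, 6.70 and 4.07 with YOd, with 3 arrays saturated.

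Of the probes affected in all, 955 of 1303 have no name here, and 69 probes changed over 1.5-fold in each of the 3 pigs. Of the table's genes with Sd and YOd levels that did not overlap, LOC100737457 was at -3.01, -4.08 and -2.49 with Sd and at -1.57, -2.26 and -1.86 with YOd. SH3BGRL2 had ratios of 1.55, 1.20 and 0.54.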
